A study of Mus musculus with 4 samples.

Results

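The mitochondrial ribosomal proteins are the nuclear-encoded proteins of the ribosome that works inside mitochondria, and 76 of their genes were described here in V6.5 mouse embryonic stem cells. Members were the genes whose symbol begins with Mrpl or Mrps followed by a number and at most a single letter, with a mean of at least 50 counts over the 4 libraries. Of 45706 genes in the table, 78 symbols fitted the pattern, and 76 passed the minimum, 47 of the large subunit (Mrpl) and 29 of the small subunit (Mrps). Mrpl53, with a mean count of 2.75, and Mrpl23, with 40.5, were below it. All 646 stretches of 50 bases in the Mrpl53 transcript, and 66.7% of those of Mrpl23, also lie in another annotated gene. All 76 members passed the filter on low counts.

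The 24 h group held 2 libraries, replicates A and B, of stable clonal lines given doxycycline for 24 h to switch on a Cas9 carried on a lentivirus, and its genotype is labelled KLF KO. The 0 h group held 2 libraries, also A and B, labelled KLF WT and collected with no induction. The labels' protocols describe guide RNAs that target either KLF4 or the set of KLF2, KLF4 and KLF5. All titles carry the letters TKO, but those at 24 h also read "after KLF4 KO" and those at 0 h "WT ESCs". Which guides a given library carried is therefore uncertain. All cells were V6.5 cells kept on irradiated feeder fibroblasts with 15% serum, 1000 U/ml LIF and inhibitors of GSK3 (3 µM) and of MEK (1 µM). Doxycycline was a 1000-fold dilution of a 2 mg/ml stock. Doxycycline, Cas9 cutting, any loss of KLF protein and time share this contrast and cannot be told apart. In bulk RNA, fewer cells of a type and less RNA per cell cannot be told apart either.

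Mitochondrial ribosomes translate the few messenger RNAs that mitochondrial DNA encodes, all of them for subunits of the respiratory chain and the ATP synthase. Their RNAs come from mitochondrial DNA, but every protein of both subunits is made in the cytosol from nuclear genes and imported. Doxycycline is a tetracycline, a class of antibiotics that binds the small subunit of bacterial ribosomes and is known to slow translation in mitochondria, which is why this gene group is of interest wherever the drug is used as an inducer.

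Libraries held 46031578 to 52412844 counts, so 3 counts correspond to 0.0593 to 0.0641 CPM (counts per 1000000, here with TMM scaling). The genes that the guides target were not past the test at the level of RNA. Klf4 had 244.4 and 235.7 CPM in 24 h A and B, against 331.4 and 257.0 CPM in 0 h A and B. Klf2 had 147.3 and 152.5 CPM in 24 h A and B, against 231.9 and 123.5 CPM in 0 h A and B. Klf5 had 225.9 and 215.6 CPM in 24 h A and B, against 430.9 and 294.3 CPM in 0 h A and B. For all 3 genes 0 h A was the highest library. Klf2, Klf4 and Klf5 had log2 fold changes of -0.25, -0.29 and -0.72, with adjusted p = 0.58, 0.223 and 0.0567 (edgeR). A cut in DNA need not lower a transcript, so this is no check of protein loss. Of 6 stem cell markers (Pou5f1, Sox2, Nanog, Zfp42, Esrrb and Dppa5a) none was at 0, and their summed level was 3398 to 3448 CPM at 24 h, against 3758 to 3876 CPM at 0 h. The summed level of 10 fibroblast markers was 2100 to 2164 CPM at 24 h, against 2138 to 2759 CPM at 0 h, mostly from Fn1. Lum was at 0 in 24 h A and in both 0 h libraries. The part of feeder RNA in the results was not tested. Over all 18005 genes tested, 0 h replicate A stood apart in GC content. Its deviation from the mean of the 4 libraries correlated with transcript GC (r = 0.598 across 14314 genes), against -0.233 and -0.326 for 24 h A and B and -0.273 for 0 h B.

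Few members passed the test of 24 h against 0 h, which does not show that levels were unchanged. The gene that passed edgeR's test was Mrpl34, which was lower at 24 h, and 0 members were called higher. Directions over all members are given further on. Large-subunit members had 1 lower and 0 higher of 47, and small-subunit members 0 of 29 in either direction. Mrpl34 is 1 of 76 members, or 1.32%, where 6.80% of all genes tested were called, 2.65% of them lower and 4.15% higher. At an unadjusted p under 0.05, 7 members were lower (5 large, 2 small) and 0 higher, where 12.6% of all genes were lower and 25.8% differed in either direction. DESeq2's Wald test called 3 members lower (Mrpl34, Mrps12 and Mrpl14) and 0 higher, with 11.1% of all genes called and 5.32% lower, and limma voom called Mrpl34 alone, with 6.03% called and 2.16% lower.

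The coding sequences below are shown because the fold changes of members went with base composition, as the values further on show. They are the first 150 coding bases of 2 members with low log2 fold changes, Mrpl34 and Mrps12, and 2 with high ones, Mrpl1 and Mrps18c, 5′ to 3′ from the GENCODE M21 transcripts, with every G and C in capitals.
Mrpl34: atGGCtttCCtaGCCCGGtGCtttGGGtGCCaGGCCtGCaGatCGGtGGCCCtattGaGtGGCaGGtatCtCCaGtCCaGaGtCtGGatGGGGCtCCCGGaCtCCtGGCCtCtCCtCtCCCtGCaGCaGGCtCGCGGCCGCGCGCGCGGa
Mrps12: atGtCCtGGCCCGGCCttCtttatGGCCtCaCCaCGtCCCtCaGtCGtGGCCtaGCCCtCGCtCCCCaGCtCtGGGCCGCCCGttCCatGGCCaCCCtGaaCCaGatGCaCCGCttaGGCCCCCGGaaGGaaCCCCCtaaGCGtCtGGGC
Mrpl1: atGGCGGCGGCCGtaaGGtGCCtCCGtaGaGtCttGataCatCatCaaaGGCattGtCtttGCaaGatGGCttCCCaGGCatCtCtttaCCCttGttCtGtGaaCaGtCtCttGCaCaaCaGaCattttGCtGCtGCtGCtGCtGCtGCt
Mrps18c: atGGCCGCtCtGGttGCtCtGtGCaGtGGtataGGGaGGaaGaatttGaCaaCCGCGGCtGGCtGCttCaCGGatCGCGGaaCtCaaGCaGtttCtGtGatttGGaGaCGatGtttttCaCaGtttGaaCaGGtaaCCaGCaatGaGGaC
G and C made up 66.7% of the stretch in both Mrpl34 and Mrps12, against 50.7% in both Mrpl1 and Mrps18c. Over the whole transcript GC was 58.3% for Mrpl34, 56.5% for Mrps12, 41.6% for Mrpl1 and 44.5% for Mrps18c. On GRCm38 these genes lie at chr8:71464959-71465747 (plus strand), chr7:28739641-28741820 (minus), chr5:96209493-96266727 (plus) and chr5:100798627-100804471 (plus).

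Mrpl34, a small large-subunit protein with a bacterial homologue, had 31.3 and 32.4 CPM in 24 h A and B, against 52.1 and 44.0 CPM in 0 h A and B. Both 24 h libraries were below both 0 h libraries, and the 24 h pair lay closer together than the 0 h pair. Means were 31.9 ± 0.823 CPM at 24 h and 48.1 ± 5.77 CPM at 0 h (SD, n = 2 each). Its log2 fold change stood at -0.59 (SE 0.127, 95% interval -0.89 to -0.29), and the Benjamini-Hochberg adjusted p of the quasi-likelihood test was 0.0405 (edgeR). Against 0 h B alone the log2 fold change was -0.47 and against 0 h A alone -0.72. With the GC and length trend of each library removed, it was -0.38 with adjusted p = 0.00608 (edgeR). With 24 h A or 24 h B left out, the call was lost at -0.59 and -0.63, and over all alternatives the adjusted p ran from 8.18e-23 to 0.361.

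Mrps12, a protein of the decoding centre of the small subunit, had the lowest log2 fold change of all 76 members and missed the threshold. Its levels were 35.8 and 33.6 CPM in 24 h A and B, against 72.7 and 47.9 CPM in 0 h A and B. The groups did not overlap, but the 0 h libraries were farther from each other than 0 h B was from the 24 h libraries. The log2 fold change was -0.80 (SE 0.194, 95% interval -1.25 to -0.34; adjusted p = 0.0568, edgeR). It was -0.47 against 0 h B alone and -1.07 against 0 h A alone. With the GC and length trend of each library removed, it was -0.64 with adjusted p = 0.00561, and the adjusted p ran from 5.47e-59 to 0.159 over the alternatives.

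Mrps12 starts 172 bases from Sars2, the mitochondrial seryl-tRNA synthetase, on the opposite strand. The 170 bases upstream of Mrps12, back to the nearest exon of Sars2, are shown because this stretch lies between both starts (RefSeq promoter table, GRCm38.p6, chr7:28741822-28741991, minus strand, 5′ to 3′). Capitals mark CCAAT.
Mrps12: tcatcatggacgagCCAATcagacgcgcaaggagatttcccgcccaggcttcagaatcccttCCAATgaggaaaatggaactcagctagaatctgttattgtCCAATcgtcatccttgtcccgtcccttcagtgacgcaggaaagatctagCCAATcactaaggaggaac
The letters CCAAT occurred 4 times in it on the strand shown. Sars2 had 36.3 and 34.3 CPM in 24 h A and B, against 56.2 and 39.6 CPM in 0 h A and B. As for Mrps12, 0 h A was the highest library. The log2 fold change of Sars2 was -0.44 with adjusted p = 0.167 (edgeR), so it was not called.

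Among proteins of the large subunit with bacterial homologues, Mrpl14 and Mrpl12 were the next lowest. Mrpl14, which sits at the interface with the small subunit, had 17.1 and 16.8 CPM in 24 h A and B, against 27.2 and 22.0 CPM in 0 h A and B. Its log2 fold change was -0.54 (SE 0.147; adjusted p = 0.0771, edgeR). Mrpl12, the stalk protein that recruits translation factors, had 76.1 and 74.2 CPM in 24 h A and B, against 125.9 and 80.3 CPM in 0 h A and B. For Mrpl12 the gap between the 0 h libraries was wider than that between 0 h B and the 24 h libraries. Its log2 fold change was -0.46, but -0.10 against 0 h B alone (adjusted p = 0.202 with all libraries, edgeR).

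Mrpl52 and Mrpl43, large-subunit proteins without a bacterial homologue, completed the 5 lowest of that subunit. Mrpl52 had 42.7 and 42.9 CPM in 24 h A and B, against 63.2 and 51.2 CPM in 0 h A and B, at a log2 fold change of -0.42 (adjusted p = 0.108, edgeR). Mrpl43 had 54.1 and 52.6 CPM in 24 h A and B, against 83.4 and 58.9 CPM in 0 h A and B, a log2 fold change of -0.41 (adjusted p = 0.178, edgeR). In both, the 24 h libraries lay below both 0 h libraries, with 0 h B the nearer. Of the Mrpl43 transcript, 22.9% of stretches of 50 bases are shared with other genes, mostly Twnk, the mitochondrial DNA helicase on the opposite strand.

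At the other end of the large subunit stood Mrpl1, the protein of the stalk near which transfer RNAs leave the ribosome. It had 60.4 and 67.1 CPM in 24 h A and B, against 41.5 and 60.5 CPM in 0 h A and B. The 24 h A level was just under that of 0 h B, so the groups overlapped, and 0 h A was the library that stood low. The log2 fold change was 0.32 (SE 0.181; adjusted p = 0.303, edgeR), 0.07 against 0 h B alone and 0.61 against 0 h A alone. Mrpl13, Mrpl3, Mrpl32 and Mrpl16 followed with log2 fold changes of 0.21, 0.18, 0.17 and 0.15, none past the test.

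Mrpl3, which reaches towards the peptidyl transferase centre, had 49.9 and 48.4 CPM in 24 h A and B, against 38.4 and 48.5 CPM in 0 h A and B. Its other libraries were within a narrow range and 0 h A was low (adjusted p = 0.452, edgeR). Mrpl32, whose precursor is cleaved by a protease of the inner membrane during ribosome assembly, had 52.5 and 52.1 CPM at 24 h, against 38.8 and 54.3 CPM at 0 h, the low value again in 0 h A. Mrpl16, a protein of the central region of the large subunit, had 41.8 and 43.0 CPM at 24 h, against 37.1 and 39.4 CPM at 0 h. Its groups did not overlap, but the difference was small (adjusted p = 0.427, edgeR).

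In the small subunit, Mrps34, Mrps26, Mrps2 and Mrps7 followed Mrps12 at the low end. Mrps34, a protein with no bacterial homologue, had 10.003 and 9.12 CPM in 24 h A and B, against 17.2 and 10.6 CPM in 0 h A and B, a log2 fold change of -0.54 (adjusted p = 0.196, edgeR) that was -0.15 against 0 h B alone. Of its transcript, 52.4% of stretches of 50 bases are shared with Mapk8ip3 on the opposite strand. Exons of Mrps34 also overlap those of Nme3, on the same strand, over 763 bases. Nme3 had a mean of 8.0 counts, under the minimum of 10 used for the overlaps counted further on. Mrps26, also without a bacterial homologue, had 23.6 and 23.5 CPM in 24 h A and B, against 35.5 and 24.6 CPM in 0 h A and B, a log2 fold change of -0.35 (adjusted p = 0.264, edgeR). In both genes 0 h A alone was far above the other libraries. Mrps7, a protein of the head of the small subunit, had a log2 fold change of -0.24 with overlapping groups (adjusted p = 0.349, edgeR).

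Mrps2 showed a different arrangement. This protein of the small subunit, with a bacterial homologue, had 182.8 and 185.0 CPM in 24 h A and B, against 224.9 and 229.4 CPM in 0 h A and B. Here the 0 h libraries lay close together, as the 24 h libraries did, with a clear gap between the groups. The log2 fold change was -0.30 (SE 0.0944, 95% interval -0.53 to -0.08; adjusted p = 0.104, edgeR), and it was -0.32 against 0 h B alone and -0.29 against 0 h A alone. Mrps5, near the path of the messenger RNA, had 87.3 and 83.8 CPM in 24 h A and B, against 103.6 and 94.9 CPM in 0 h A and B. Its groups did not overlap either, and the log2 fold change was -0.21 (SE 0.105; adjusted p = 0.246, edgeR). Mrps15, which contacts the small ribosomal RNA, had 94.3 and 101.2 CPM at 24 h, against 108.2 and 120.7 CPM at 0 h, a log2 fold change of -0.23 (adjusted p = 0.237, edgeR).

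The small-subunit members with the highest log2 fold changes were Mrps18c (0.16), Mrps6 (0.12), Mrps31 (0.10), Mrps35 (0.09) and Mrps18a (0.06), and none was past the test. Mrps6, with a bacterial homologue, had 33.1 and 32.7 CPM at 24 h, against 31.2 and 29.4 CPM at 0 h, without overlap. Mrps35 had 61.3 and 59.8 CPM at 24 h, against 54.9 and 58.6 CPM at 0 h, also without overlap. For Mrps31 the groups overlapped. Mrps31 and Mrps35 have no bacterial homologue.

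Mrps18a, Mrps18b and Mrps18c are paralogues of a single bacterial protein, and in the structure of the mammalian ribosome the protein of Mrps18a lies in the large subunit. Mrps18a had 42.0 and 44.4 CPM at 24 h, against 42.3 and 40.5 CPM at 0 h. Mrps18b had 37.9 and 39.2 CPM at 24 h, against 33.3 and 42.9 CPM at 0 h, a log2 fold change of 0.02. Mrps18c had 18.4 and 21.05 CPM at 24 h, against 15.0 and 20.5 CPM at 0 h. All 3 had overlapping groups and 95% intervals that included 0, and the intervals ran from -0.20 to 0.32 for Mrps18a, -0.33 to 0.36 for Mrps18b and -0.27 to 0.58 for Mrps18c. Of the Mrps18b transcript 63.7% of stretches of 50 bases, and of Mrps18c 23.2%, are shared with other genes.

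Mrps30, whose protein also lies in the large subunit, had 76.7 and 82.5 CPM at 24 h, against 68.2 and 85.2 CPM at 0 h, a log2 fold change of 0.05. Mrps36, now known as a subunit of the oxoglutarate dehydrogenase complex rather than of the ribosome, had 1.23 and 1.24 CPM at 24 h, against 1.38 and 1.42 CPM at 0 h. Its log2 fold change of -0.18 had a 95% interval of -0.77 to 0.40, the limit set by a mean of few counts. Moving Mrps18a and Mrps30 to the large subunit and leaving out Mrps36 gave 1 lower of 49 and 0 of 26, with medians of -0.06 and -0.10.

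The other 44 members lay between these ends, and those named among them are the ends of their ranges. The 32 of the large subunit ranged from -0.34 (Mrpl4) to 0.12 (Mrpl24) in log2 fold change, with levels of 10.2 to 208.4 CPM at 24 h and 10.5 to 217.4 CPM at 0 h (group means). The groups overlapped in 20 of them, 11 were lower and 1 higher without overlap, and the lowest adjusted p was 0.152 (edgeR). The 12 of the small subunit ranged from -0.17 (Mrps27) to 0.06 (Mrps14), with levels of 19.0 to 73.05 CPM at 24 h and 21.1 to 72.4 CPM at 0 h. Here 6 overlapped, 5 were lower and 1 higher without overlap, and the lowest adjusted p was 0.358 (edgeR).

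**Figure D1:**
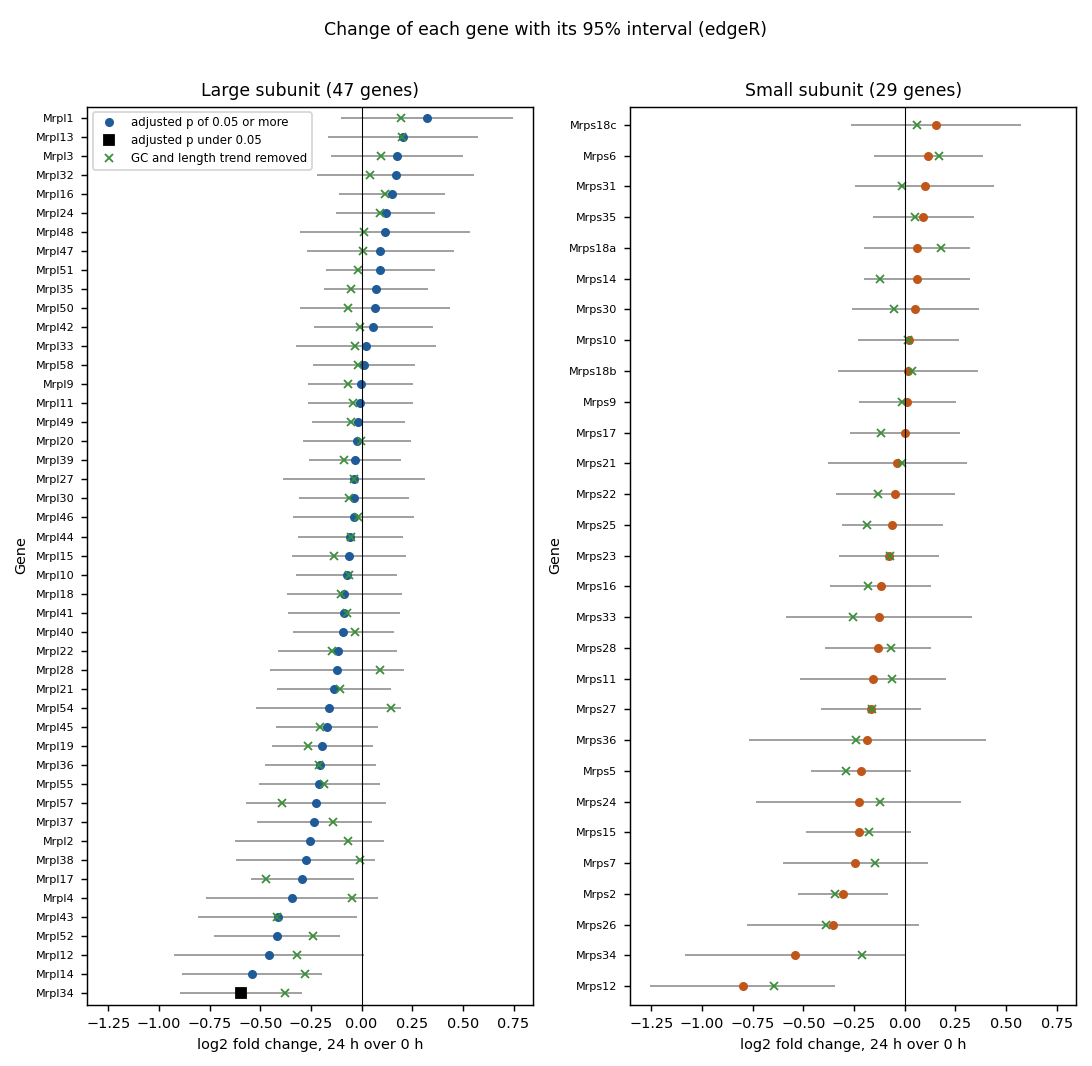
Log2 fold change of each member (24 h over 0 h) with its 95% interval, large subunit on the left and small subunit on the right. Squares are past the test and circles are not, crosses are the values with the GC and length trend removed. The square is Mrpl34 at -0.59, and most points lie within 0.25 of 0.

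As a group the members were tightly spread about a small negative value. Their median log2 fold change was -0.07, that of the large subunit -0.06 and that of the small subunit -0.08, beside -0.01 over all genes tested. The large-minus-small difference of medians was 0.02. It was 0.067 with the GC and length correction and 0.055 with that and the replicate block. Without 24 h A it was -0.034 and without 0 h B 0.091. Between replicates, the median log2 difference of A minus B was -0.0203 (large) and -0.0179 (small) at 24 h. At 0 h these were 0.0527 and 0.0605. The log2 ratio of the subunits' median CPM, a different measure, had an SD of 0.0353 between replicate libraries. Whether the subunits differed was not tested. Quartiles of the members were -0.21 and 0.03, and the range was -0.80 (Mrps12) to 0.32 (Mrpl1). The SD of members' log2 fold changes was 0.20, against 0.60 over all genes tested, and their median SE was 0.122, against 0.168. Members had a mean of at least 50 counts, while all genes tested include lower ones, so these spreads are not at like depth. Among related lists the SD was 0.21 for mitochondrial transcription and genome maintenance and 0.22 for assembly factors. It was 0.29 for cytosolic ribosomal proteins and 0.73 for mitochondrially encoded mRNAs. In 62 of 76 members the log2 fold change was under 0.25 in size.

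The intervals bound what these libraries can show. In 74 of 76 members the whole 95% interval lay within a 2-fold change in either direction, and in 60 within 1.5-fold. The exceptions to 2-fold were Mrps12 and Mrps34, both of the small subunit. In 7 members, 5 large and 2 small, the interval did not include 0. Members with a bacterial homologue (47) had a median of -0.06 and those without (29) -0.08, with 1 and 0 called.

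Values were negative in 51 members and positive in 25, beside 9151 and 8854 of all genes tested. The count moved with the scaling, to 42 negative and 34 positive with upper quartile scaling and 40 and 36 with library size scaling. That over all genes tested moved too, to 8259 negative and 9746 positive and to 7984 and 10021. With the GC and length correction it was 60 and 16 in members, beside 9536 and 8469 of all genes tested. In 30 of 76 members (39.5%) both 24 h libraries were below both 0 h libraries, and in 5 (6.58%) both were above. Over all genes tested these shares were 29.5% and 29.3%, and 58.8% did not overlap in either direction. In the large subunit 18 members were lower without overlap and 2 higher (Mrpl16 and Mrpl24), and in the small subunit 12 and 3 (Mrps6, Mrps14 and Mrps35; Mrpl24 and Mrps14 were named after their values were seen). Without overlap the 24 h values could still differ little: Mrps36 was among the 12.

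Summed over members, the large subunit had 2818 and 2873 CPM in 24 h A and B, against 3078 and 2989 CPM in 0 h A and B. The small subunit had 1449 and 1476 CPM in 24 h A and B, against 1624 and 1575 CPM in 0 h A and B. Neither sum overlapped between the groups, and 0 h A was the highest library in both. The small-to-large ratio of sums was 0.514 in both 24 h libraries, against 0.528 and 0.527 in 0 h A and B. A sum weighs abundant members most, and Mrps2 had the highest level of the small subunit (mean 205.5 CPM over the 4 libraries). It was lower at 24 h without overlap, and its part in the ratio was not tested. All members together took 0.436% and 0.442% of counts at 24 h, against 0.454% in each 0 h library.

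**Figure D2:**
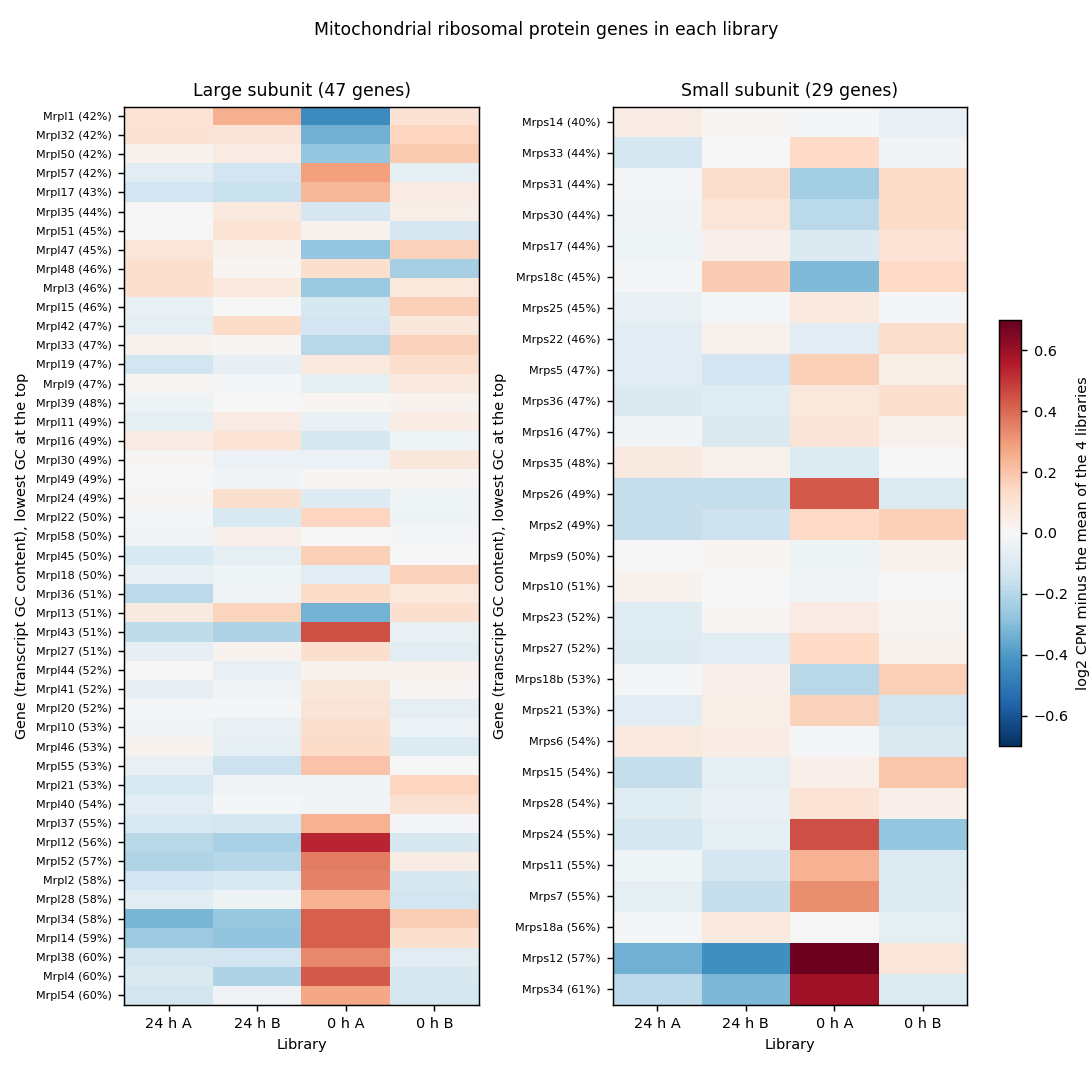
Log2 CPM of each member minus its mean over the 4 libraries, one row per gene with transcript GC content in brackets and rising down the page. The 24 h columns resemble each other in most rows, and the 0 h A column is mostly blue near the top (Mrpl1, Mrpl32) and mostly red near the bottom (Mrpl34, Mrps12).

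The 24 h libraries were nearly alike in these genes, and the 0 h libraries were not. Over members, log2 differences between replicates had an SD of 0.0749 at 24 h, against 0.298 at 0 h (log2 of CPM plus 0.1). Over all genes tested, which include genes with fewer counts than any member, it was 0.291 at 24 h and 0.422 at 0 h. Level in 0 h A exceeded that in 0 h B in 43 of 76 members. Whether the letter A or B marks a shared clone is not stated, and edgeR assumes the same spread in both groups.

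The difference between the 0 h replicates followed GC content, and so did the fold changes. Across the 76 members, the log2 ratio of 0 h A over 0 h B had r = 0.628 with transcript GC, and that of 24 h A over 24 h B r = 0.215. The log2 fold change had r = -0.598 with GC, -0.654 with 0 h A as the only 0 h library, and -0.169 with 0 h B as the only one. With each library's GC and length trend removed it was -0.0403. That correction is fitted to take out such a trend, so the last value is no separate result. These correlations are across genes measured in the same 4 libraries, and genes are not independent replicates. Over all genes tested the fold change had r = -0.225.

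By GC content, the 25 lowest members (39.6 to 47.4%) had a median log2 fold change of 0.05, the 26 middle ones (47.5 to 52.5%) -0.05 and the 25 highest (52.6 to 60.6%) -0.23. All genes tested within those GC ranges had medians of 0.10, 0.00 and -0.15. With the trend removed, the members' medians were -0.07, -0.06 and -0.07, a levelling that the correction is fitted to bring about. Mrpl1, Mrpl3, Mrpl32 and Mrps31 were in the lowest range, and Mrpl34, Mrps12, Mrpl14, Mrpl12, Mrpl52 and Mrps34 in the highest. The part of base composition in any single gene's change was not tested beyond these values.

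**Figure D3:**
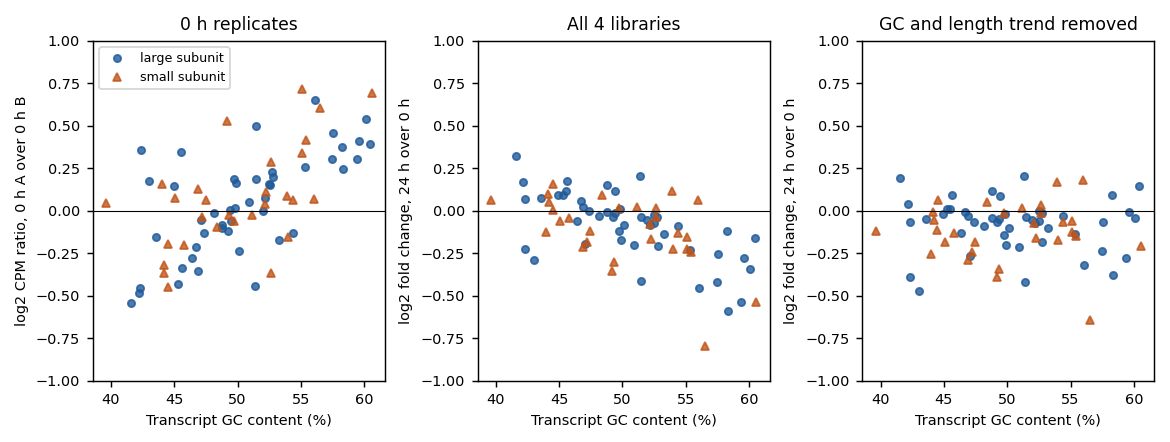
Transcript GC content on the x axis against, from left to right, the log2 CPM ratio of 0 h A over 0 h B, the log2 fold change of 24 h over 0 h, and the same with the GC and length trend removed. Each point is a member, and r is 0.628, -0.598 and -0.0403 from left to right.

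With the GC and length trend removed, the same edgeR test called 8 members lower and 0 higher, where 24.6% of all genes were called, 13.0% lower and 11.7% higher. They were Mrpl34, Mrpl17, Mrpl14, Mrpl19 and Mrpl52 of the large subunit (5 of 47) and Mrps12, Mrps2 and Mrps5 of the small subunit (3 of 29). The 8 are 10.5% of members, under the share of genes called lower. Mrpl17, a large-subunit protein with a bacterial homologue named after its values were seen, stood at -0.47 with the trend removed and -0.29 before. The sign changed under this correction in 13 of 76 members.

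Each 0 h library was also taken alone against both 24 h libraries, which assumes that a lone library varies as the 24 h pair does. Without 0 h A, 14 members were lower (10 large, 4 small) and 2 higher (1 large, 1 small), with 32.2% of all genes called, 15.8% lower and 16.5% higher. Without 0 h B, 31 were lower (19 large, 12 small) and 15 higher (11 large, 4 small), with 50.2% called, 27.0% lower and 23.2% higher. Lower in both fits were 10 of 76 members (13.2%), beside 11.3% of all genes, and higher in both were 0, beside 11.1%. The 10 were Mrpl34, Mrpl14, Mrpl52, Mrpl19, Mrpl17, Mrpl36, Mrps12, Mrps2, Mrps15 and Mrps5, with Mrpl17 and Mrpl36 named after their values were seen. Mrps24, a small-subunit protein that helps form the entry for the messenger RNA, passed in opposite directions, at 0.18 without 0 h A and -0.54 without 0 h B, and in 30 of 76 members the sign differed between these fits.

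Under the other settings no member was called higher. With DESeq2's size factors 2 members were lower, beside 2.90% of all genes lower and 7.21% called in either direction. Upper quartile scaling left 1 lower (Mrpl34), beside 2.51% lower and 7.51% called, and library size scaling likewise 1, beside 2.39% and 7.73%. With no filter on low counts 5 members were lower, beside 5.10% lower and 9.71% called. With the replicate letter as a block 7 members were lower, beside 8.86% and 18.1%, and with the GC and length correction too 13 were lower, beside 16.2% and 30.3%. With 24 h A left out 0 were lower, beside 1.05% and 3.02%, and with 24 h B left out 0, beside 0.899% and 2.71%.

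Levels per length spanned a wide range that was much the same in all libraries. In mean CPM per kilobase of transcript, the median was 39.2 for the large subunit (1.61 to 144) and 32.5 for the small subunit (1.88 to 113). Highest in the large subunit were Mrpl42 at 144, Mrpl52 at 108 and Mrpl2, a protein of the peptidyl transferase centre, at 84.3 CPM per kilobase. Highest in the small subunit were Mrps15 at 113, Mrps2 at 98.8 and Mrps24 at 69.6 CPM per kilobase. At the low end of the large subunit stood Mrpl48 at 1.61, Mrpl19 at 10.7 and Mrpl57 at 11.5 CPM per kilobase, and of the small subunit Mrps36 at 1.88, Mrps33 at 2.69 and Mrps26 at 6.26. Neighbours in these orders often differed by less than their libraries did.

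Length was that of the longest protein-coding transcript in the basic annotation, which may not be the one expressed. Mrpl42 had 91.0 and 104.1 CPM at 24 h, against 86.8 and 100.6 CPM at 0 h, and 18.8% of its stretches of 50 bases are shared with another gene. Mrpl48 had 7.41 and 6.90 CPM at 24 h, against 7.39 and 5.82 CPM at 0 h. Mrps33 had 2.74 and 2.97 CPM at 24 h, against 3.28 and 2.94 CPM at 0 h. In all 3 the groups overlapped. In Mrpl57, the groups did not, with 31.1 and 30.0 CPM at 24 h, against 40.1 and 31.3 CPM at 0 h (log2 fold change -0.23, adjusted p = 0.37, edgeR).

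**Figure D4:**
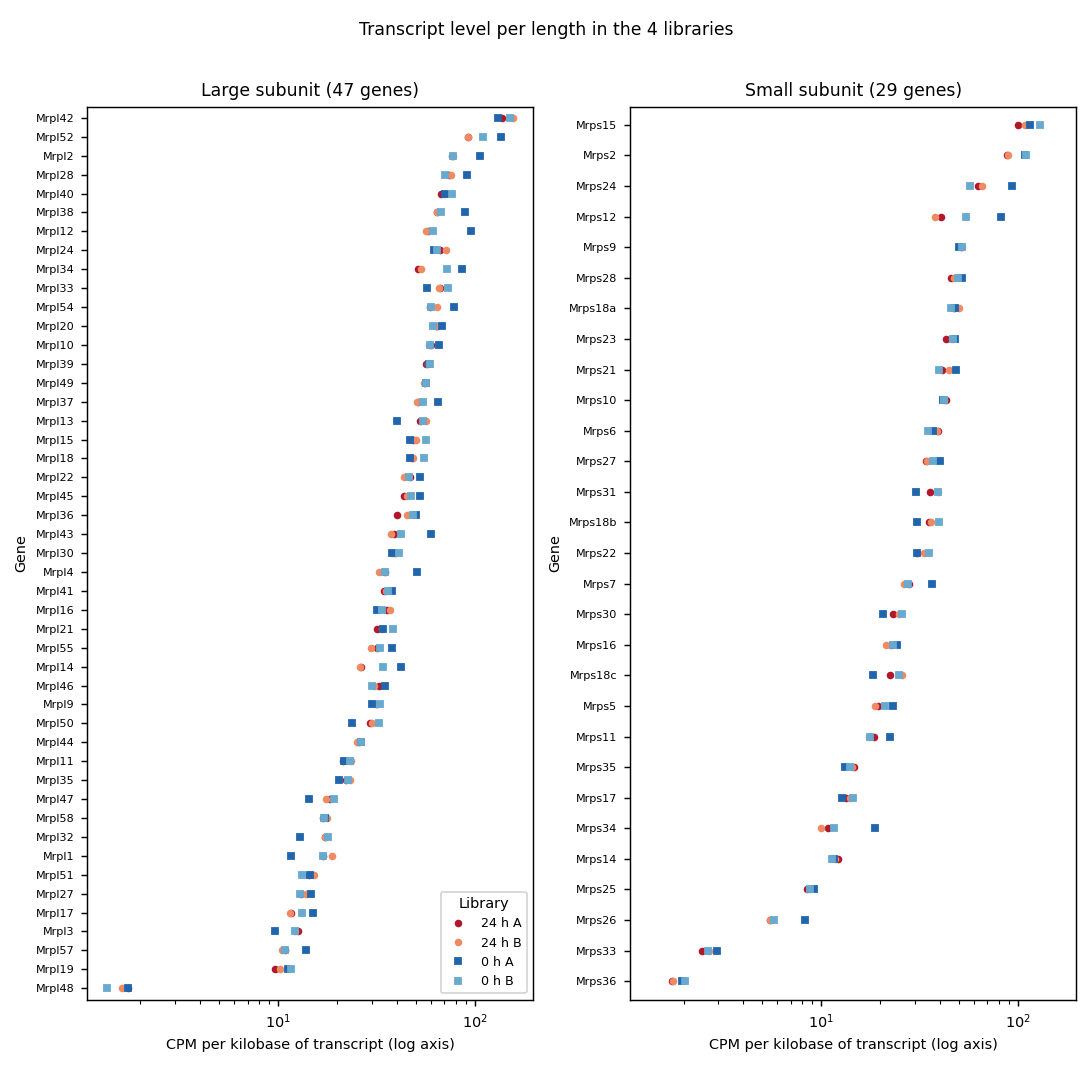
CPM per kilobase of transcript (log axis) for each member in the 4 libraries, ordered by the mean within each subunit; circles are 24 h and squares 0 h. Levels run from Mrpl42 (144) to Mrpl48 (1.61) in the large subunit and from Mrps15 (113) to Mrps36 (1.88) in the small subunit.

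Exons of 26 of 76 members overlap a gene with a mean of at least 10 counts, 4 of them on the same strand, and in 27 members at least 10% of stretches of 50 bases occur in another gene. Reads of such genes may be mixed, since the strand setting of the counting is unknown here. Among the named members this touches Mrpl19 (40.3% shared), Mrps36 (36.2%), Mrps6 (32.3%), Mrpl13 (23.9%), Mrps33 (20.98%), Mrps30 (16.9%), Mrps5 (12.4%) and Mrpl12 (10.3%) beside those given above. Exon overlap with another gene also touches Mrpl3 (Gm38077, same strand, 248 bases), Mrps24 (Urgcp, same strand, 226 bases), Mrps18c (Gm43511, same strand, 250 bases), Mrps6 (Slc5a3, same strand, 159 bases), Mrpl14 (Tmem63b, opposite strand, 106 bases), Mrpl48 (Rab6a, opposite strand, 708 bases) and Mrps7 (Gga3 and Mif4gd, opposite strand, 127 and 119 bases). Mrpl34, Mrps12 and Mrps2 had under 10% of stretches shared and no such overlap.

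Many members start close to another gene. A protein-coding gene on the opposite strand started within 1000 bases in 33 of 76 members (43.4%), and in 2133 of 14425 protein-coding genes tested (14.8%). Mrps11 and Mrpl46 are such a pair, with starts 412 bases apart, and had log2 fold changes of -0.16 and -0.04. Of the partners of the members, Pnpla7 (beside Mrpl41) was called, at 0.66 (adjusted p = 0.0365, edgeR), while Mrpl41 was at -0.09. These genes were named after their values were seen.

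Promoter letters were searched in the 250 bases before the RefSeq start, on either strand, for the 67 members with an entry. The NRF1 letters GCGCATGCG, named for a regulator of nuclear genes for mitochondria, were in 10.4% of member promoters, beside 2.87% of those of 11958 genes tested. The ETS letters CCGGAAGT were in 13.4%, beside 5.52%, and the YY1 letters AAGATGGCG in 2.99% (2 of 67), beside 1.05%. The KLF letters GGGNGTGGC were in 5.97%, beside 7.69%, the GC box GGGGCGGGG in 17.9%, beside 19.3%, and CCAAT in 35.8%, beside 36.5%. NRF1 letters were in 6 of 41 large-subunit promoters (14.6%) and 1 of 26 small-subunit promoters (3.85%), counts too small to compare the subunits. A match is a run of letters and not a bound site, and GC-box and KLF letters can overlap. The 250 bases before the start of Mrpl34, the member called lower, held none of these letters (RefSeq, GRCm38.p6, chr8:71464676-71464925, plus strand, 5′ to 3′).
Mrpl34: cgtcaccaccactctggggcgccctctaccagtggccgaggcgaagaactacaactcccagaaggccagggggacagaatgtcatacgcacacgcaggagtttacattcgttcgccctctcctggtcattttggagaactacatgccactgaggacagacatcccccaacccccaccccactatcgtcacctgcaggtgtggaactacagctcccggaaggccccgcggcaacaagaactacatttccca

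Few other genes of the same machinery were called, beside 6.80% of all genes tested. The lists were chosen with earlier results of these data known, and no test of a list was made. Of 5 mitochondrial ribosomal proteins with other symbols, 0 were called and the median log2 fold change was -0.05. Gadd45gip1, a large-subunit protein, had 34.4 and 32.3 CPM in 24 h A and B, against 56.9 and 40.4 CPM in 0 h A and B (log2 fold change -0.54, adjusted p = 0.109, edgeR). Ptcd3 and Chchd1 of the small subunit were at 0.30 and 0.31, Aurkaip1 at -0.17 and Dap3 at -0.05, the last pair named after their values were seen. None passed the test.

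Assembly factors (25 genes) had 0 called and a median of -0.09, or -0.05 without 0 h A. The RNA methyltransferase Mrm2 was at -0.48, the small-subunit assembly factor Rbfa at -0.44 and the methyltransferase Mrm1 at -0.36. Translation factors (15 genes) had 0 called and a median of 0.11, or 0.01 without 0 h A, with the elongation factor Tufm at -0.47, the initiation factor Mtif3 at -0.56 and the insertase Oxa1l at -0.22. Mitochondrial aminoacyl-tRNA synthetases (17 genes) had 0 called and a median of -0.09, which turned to 0.03 without 0 h A, with Rars2 at 0.39, Nars2 at 0.40 and Aars2 at -0.58. None of the genes named here passed edgeR's test. Genes of mitochondrial transcription and genome maintenance (11) had 0 called and a median of -0.04, with the RNA polymerase Polrmt at -0.45, the DNA polymerase Polg at -0.35 and the elongation factor Tefm at 0.18. With the GC and length correction, calls were 1 higher and 1 lower among assembly factors, 0 and 2 among translation factors, 3 and 2 among synthetases and 0 and 1 in the last list, where 24.6% of all genes were called.

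The messenger RNAs that these ribosomes translate showed larger values. Of 13 in the list, 9 passed the filter, 1 was called higher and 0 lower, and the median log2 fold change was 0.46. That median was 0.26 without 0 h A, 0.69 without 0 h B and 0.28 with the GC and length correction, which called 4 higher and 1 lower. The 9 and their median include mt-Atp6 and mt-Co3, whose libraries ran from 0.0201 to 0.262 CPM, where 3 counts are 0.0593 to 0.0641 CPM. In 24 h A and B mt-Co3 had 0.262 and 0.235 CPM, against 0.138 and 0.165 CPM in 0 h A and B. For mt-Atp6 these were 0.0201 and 0.171 CPM, against 0.217 and 0.226 CPM. Each passed the filter through its higher group alone, so the direction of its change is not independent of the filter. The gene called was mt-Nd2, a complex I subunit, with 4588 and 5172 CPM in 24 h A and B, against 1667 and 2808 CPM in 0 h A and B (log2 fold change 1.13, SE 0.222, adjusted p = 0.032, edgeR). Both 24 h libraries were above both 0 h libraries. Cytochrome b (mt-Cytb) was at 0.71 and cytochrome oxidase subunit mt-Co1 at -0.55, with adjusted p = 0.0533 and 0.0659 (edgeR). With the GC and length correction both were past the test in the same directions, at 0.56 and -0.71.

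Stress and quality-control genes were read against the 6.80% of all genes called. Mitochondrial chaperones and proteases (13 genes) had 0 called and a median of 0.00 in size, with the protease Htra2 at -0.54, the protease Lonp1 at -0.35 and the chaperonin Hspe1 at 0.44. Targets of the integrated stress response (16 genes) had 1 higher and 0 lower, a share near that of all genes, and a median of -0.02. The gene was Ddit3, a stress-induced transcription factor, with 70.3 and 72.2 CPM in 24 h A and B, against 52.1 and 49.4 CPM in 0 h A and B (log2 fold change 0.49, SE 0.105, adjusted p = 0.0397, edgeR). Ddit4 and Atf5 of the same list were at 0.46 and 0.43, not past the test. With the GC and length correction 4 of the 16 were higher, Ddit3, Ddit4 and Atf5 among them, and 2 lower, beside 24.6% of all genes called, and the median was 0.03. Regulators of mitochondrial biogenesis (10 of 11 tested) had 0 called and a median of -0.18, with Gabpb1 at 0.37, Pprc1 at -0.49 and Yy1 at -0.22. That median was -0.01 with the GC and length correction, which called 1 higher and 3 lower, and it turned to 0.05 without 0 h A.

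Proteins of the cytosolic ribosome (82 genes) had 1 lower and 0 higher, and a median of -0.02. The gene was Rpl10l at -0.59 (adjusted p = 0.0449, edgeR), followed by Rpl27 at -0.85 and Rpl28 at -0.54, which did not pass. Sequence shared with other genes was measured for the members and not for genes of this list, so stray reads were not tested. Nuclear-encoded subunits of the respiratory chain (79 of 81 tested) had 1 higher and 0 lower, and a median of -0.01. The gene was Cox6a2, a subunit known from muscle, with 1.87 and 1.84 CPM at 24 h, against 0.810 and 0.679 CPM at 0 h (log2 fold change 1.31, adjusted p = 0.0332, edgeR). Cox5a at -0.67 and Cox6b2 at 0.41 did not pass. Of the 6 stem cell markers, Pou5f1 (-0.54) and Zfp42 (-0.45) were called lower and 0 higher, while Nanog was at -0.29, Dppa5a at 0.16, Sox2 at 0.07 and Esrrb at 0.01. Of the 8 fibroblast markers tested, Pdgfrb (-1.02) was called lower and 0 higher, and the others ran from -0.43 (Thy1) to 0.07 (Postn).

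**Figure D5:**
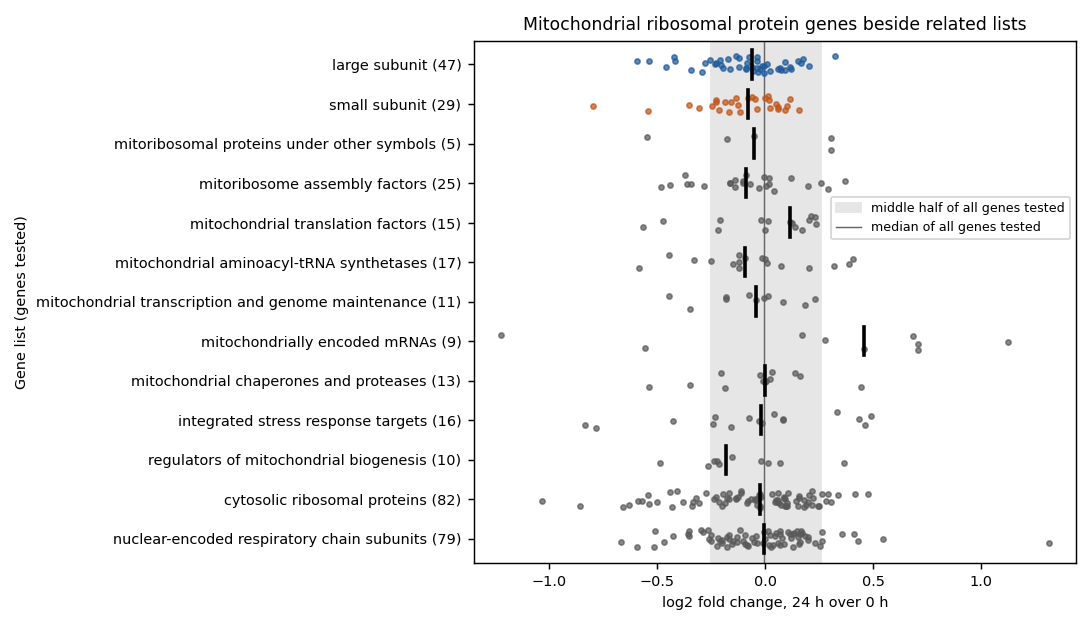
Log2 fold change (24 h over 0 h) of each gene tested, one row per list, with the list's median as a black bar; the grey band spans the quartiles of all genes tested and the line is their median. The subunits' medians are -0.06 and -0.08, and the mitochondrially encoded mRNAs have the highest median, 0.46.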

How the data were processed

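Raw read counts per Ensembl gene were deposited by the authors for 4 libraries. Per the labels' protocols, a stranded mRNA kit was used with single-end sequencing of 50 nt. The submitters' processing notes name TopHat2, HTSeq, DESeq and the build mm10, with neither version nor role. The release of the annotation and the setting for strand were not given in the sources used. Symbols, transcript length and GC content were taken from GENCODE M21 (GRCm38, the assembly of mm10), in which 45143 of 45706 identifiers matched.

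filterByExpr of edgeR 4.0.16 (minimum count 10, minimum total 15) left 18005 genes, which were scaled by TMM and tested by quasi-likelihood (2-sided, Benjamini-Hochberg over all genes tested, threshold 0.05) in R 4.3.3. The scripts were tested on simulated data. A log2 fold change is 24 h over 0 h, with a 95% interval from the test's SE. CPM were computed here with TMM scaling. The alternatives were other scalings, no filter, DESeq2 1.42.0, limma voom (limma 3.58.1), removal of each library's trend on GC content and log2 length (splines with 5 degrees of freedom, as offsets), a block for the replicate letter, and leaving out each library. The letters were not used to pair samples, since no label says that they mark a shared clone: over genes, A minus B at 24 h and at 0 h correlated at 0.0616. With 2 libraries per group, p-values reflect the spread between these samples alone, and that spread may be technical. Shared stretches are runs of 50 bases found in another gene's transcripts.

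The members, lists and tests were chosen with earlier results of these data known. The genes named are Mrpl3, Mrps5, members past the test, the 5 highest and 5 lowest log2 fold changes and 3 highest and 3 lowest levels per length of each subunit, the Mrps18 paralogues, Mrps30, Mrps36, and up to 3 genes of each list by p. Others are said to be named after their values were seen. Figures were drawn with matplotlib 3.10.9.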

Additional observations from a re-analysis of the deposited data

How the results depend on the processing

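By symbol, the medians of both subunits stayed negative in every alternative run, while that over all genes tested ran from -0.027 to 0.050. With Mrps18a and Mrps30 moved to the large subunit, its median was 0.0002 with library size scaling. By symbol, the large subunit's median ran from -0.089 to -0.006 and the small subunit's from -0.151 to -0.020. The small subunit's was -0.033 with upper quartile scaling, -0.020 with library size scaling, -0.121 with the GC and length correction and -0.108 with that and the replicate block, and -0.151 to -0.055 with a library left out. Large minus small was 0.016, 0.067 with the GC and length correction, 0.055 with that and the replicate block, and -0.034 to 0.091 with a library left out. Large-subunit members called lower, 1 at first, were 4 with no filter, 2 with DESeq2, 5 with the GC and length correction, 5 with the replicate block, 9 with both, and 0 to 19 with a library left out. Small-subunit members called lower, 0 at first, were 1 with DESeq2 size factors, with no filter and with DESeq2's test, 3 with the GC and length correction, 2 with the replicate block, 4 with both, and 0 to 12 with a library left out. With a library left out, 0 to 11 large and 0 to 4 small members were called higher.

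Genes of the comparison lists called higher were 3, and 7 with upper quartile or library size scaling, 8 with no filter or DESeq2, 21 with the GC and length correction, 16 with the replicate block, 32 with both, and 1 to 83 with a library left out. Those called lower were 4, and 18 with no filter, 13 with DESeq2, 30 with the GC and length correction, 26 with the replicate block, 38 with both, and 1 to 110 with a library left out. Their median, -0.023, was 0.034 with library size scaling. The number of genes in each list is given above. The share of all genes called rose as well, from 6.80% to 7.51% with upper quartile scaling and 7.73% with library size scaling. It was 9.71% with no filter and 11.1% with DESeq2. With the GC and length correction it was 24.6%, with the replicate block 18.1% and with both 30.3%.

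Of 416 values for 32 named members, 334 kept direction and call, 61 gained a call, 2 lost it (Mrpl34 without either 24 h library) and 19 changed sign. With the GC and length correction, without and with the replicate block, Mrpl42 was at -0.006 and -0.008, Mrps30 at -0.054 in both and Mrps31 at -0.011 in both. Mrps18b was at -0.002 with no filter. With a library left out, values ran from -0.001 to 0.439 for Mrpl13, -0.056 to 0.427 for Mrpl32, -0.057 to 0.163 for Mrpl42, -0.051 to 0.296 for Mrpl48, -0.156 to 0.207 for Mrps18b, -0.055 to 0.393 for Mrps18c, -0.545 to 0.176 for Mrps24, -0.101 to 0.218 for Mrps30 and -0.075 to 0.290 for Mrps31. The cause was not tested. Depth limits the precision most for Mrps36, the member with the lowest level in CPM among those named.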
